A study of Mus musculus with 16 samples.

Results

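Opposite-strand (os) genes are named after the gene that lies across from them on the other DNA strand, as Kdm6bos is named after Kdm6b. Rows of the count table were chosen by symbol and by count. A symbol had to end in os, with or without digits, removing the ending had to give the symbol of another row, here called the parent, and the os row had to hold at least 20 counts over the 16 columns. Of the 47069 rows, 314 symbols ended in this way, 21 of which had no parent symbol, such as Fos and Nos2. The other 293 formed pairs, and 63 pairs were kept, with 61 parents, since Ptgs2 and Arhgap27 each had 2 os rows. Of the 230 pairs not kept, 157 had 0 os counts. Just inside the limit lay Rab11fip4os1 with 20, Phf2os1 with 21 and Adap2os with 23 counts, and just outside it Fcnaos with 19 and Bach2os and Mccc1os with 17 each. The total count chose the rows, so the totals are given as a description.

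The counts came from macrophages grown out of the bone marrow (BMMs) of mice of the strain C57BL/6, 8 to 10 weeks old, with L929-conditioned medium. All cells were primed overnight with IFNγ (10 ng/mL) and activated for 1 hr with LPS (100 ng/mL) together with IgG-opsonized ovalbumin as immune complexes (LPS/ICs). They received either DAPT (25 μM), a γ-secretase inhibitor (GSI), or its vehicle DMSO (0.01%), with 2 replicates per group. γ-Secretase cleaves Notch receptors, and many other membrane proteins as well. No group without LPS/ICs and no genetic loss of Notch signaling was part of these data, and the labels do not say whether the replicates were separate cultures or animals, so p-values measure only the spread between these samples.

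Mammalian promoters often fire in both directions, and the RNA made away from the gene is usually short, poorly spliced and degraded by the nuclear exosome. Some opposite-strand genes instead start inside the parent or beyond its end, and their exons can then lie across from the exons of the parent. A few os symbols belong to ordinary protein-coding neighbors, and others to long non-coding RNAs with known roles, such as Ptgs2os2, also called lincRNA-Cox2, which is induced by TLR ligands in macrophages, or Dnm3os, the host transcript of the miRNAs miR-199a and miR-214.

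The positions bore out the names. In the GENCODE M21 annotation of GRCm38 all 63 pairs lay on opposite strands of 1 chromosome. In 26 pairs the rows were divergent with overlapping spans, in 10 they were divergent with spans apart, and in 16 the os gene lay within the span of the parent. Another 5 pairs were convergent with overlapping spans, 4 were convergent with spans apart, and in 2 the parent lay within the os gene. The annotation called 46 os genes antisense, 6 lincRNA, 4 processed transcript and 1, Cep83os, a bidirectional promoter lncRNA. It called 6 protein-coding (Wdr83os, Slc7a6os, Cebpzos, Toporsos, Ccpg1os and Chd3os), like all of the parents. Exons of the 2 rows shared bases in 44 pairs and shared none in 19. The libraries were made with a kit that keeps the strand, but the strand setting of the counting is not given in the sources used here, so for the 44 pairs a count that did not use strand could not have told the rows apart. The same limit holds for os rows with exons across from a gene other than the parent. Without strand, reads from introns of the parent could also fall on an os row within its span, even where no exon base is shared.

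The sequences below belong to some of the os rows described in the results. A promoter window runs from 250 bases before to 50 bases after the RefSeq start of a gene (GRCm38.p6), 5′ to 3′ on the strand of the gene, and 37 os rows had one. Capitals mark, on either strand, the letters TATAAA (as in the box named TATA), CCAAT (the box named after these letters), GGGCGG (GC box), TGGGAA (core of the site of RBPJ, the DNA-binding partner of Notch), TGACGTCA (cAMP response element), CACGTG (E-box) and TTGCGCAA (a site of C/EBP factors). The last 2 were added after the windows had been read. Of all 32851 windows of this length, 13.6% held the TATA box, 37.4% the CCAAT box, 35.7% the GC box, 25.6% the RBPJ core, 1.79% the cAMP response element, 7.15% the E-box and 0.183% the C/EBP letters. Among the 37 os windows, 20 held a GC box (54.1%), 11 a CCAAT box, 8 the RBPJ core (21.6%), 6 an E-box, 2 a TATA box, 1 the cAMP response element and 1 the C/EBP letters.

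Map2k3os, Cep83os and Ptgs2os are shown because each starts close to its parent and reads away from it, so that the window of the os gene and that of the parent share 286, 276 and 256 bases.
Map2k3os, chr11:60931818-60932117, minus strand: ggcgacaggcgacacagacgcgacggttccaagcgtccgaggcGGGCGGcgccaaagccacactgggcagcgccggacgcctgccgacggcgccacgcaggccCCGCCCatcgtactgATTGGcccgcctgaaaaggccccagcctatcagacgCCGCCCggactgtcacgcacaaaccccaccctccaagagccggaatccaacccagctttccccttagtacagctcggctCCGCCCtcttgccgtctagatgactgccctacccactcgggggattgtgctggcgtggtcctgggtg
Cep83os, chr10:94688564-94688863, minus strand: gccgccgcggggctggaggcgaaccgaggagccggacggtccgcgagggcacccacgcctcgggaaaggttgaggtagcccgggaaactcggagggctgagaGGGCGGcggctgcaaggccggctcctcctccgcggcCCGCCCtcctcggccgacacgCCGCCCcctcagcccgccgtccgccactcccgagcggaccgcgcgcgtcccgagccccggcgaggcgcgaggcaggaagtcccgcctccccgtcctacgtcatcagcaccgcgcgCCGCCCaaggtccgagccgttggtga
Ptgs2os, chr1:150099825-150100124, minus strand: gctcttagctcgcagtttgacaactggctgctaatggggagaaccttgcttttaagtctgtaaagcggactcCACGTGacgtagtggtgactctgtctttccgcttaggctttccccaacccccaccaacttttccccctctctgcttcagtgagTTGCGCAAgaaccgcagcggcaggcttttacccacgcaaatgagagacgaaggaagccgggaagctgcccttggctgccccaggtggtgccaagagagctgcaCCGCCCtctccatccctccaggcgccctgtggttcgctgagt
The windows of Map2k3os and Cep83os each held 4 GC boxes, and that of Map2k3os also held a CCAAT box. Ptgs2os shared with Ptgs2 a GC box, an E-box and the C/EBP letters. Il1bos, Ptgs2os2, Scpep1os and Slfn5os are shown because they start away from the start of the parent.
Il1bos, chr2:129369652-129369951, plus strand: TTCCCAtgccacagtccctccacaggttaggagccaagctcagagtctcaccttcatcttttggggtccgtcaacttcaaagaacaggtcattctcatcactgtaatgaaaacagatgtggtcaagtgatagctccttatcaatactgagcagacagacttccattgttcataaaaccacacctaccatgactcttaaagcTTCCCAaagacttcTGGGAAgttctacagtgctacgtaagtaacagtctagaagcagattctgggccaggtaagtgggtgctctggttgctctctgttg
Ptgs2os2, chr1:150164899-150165198, minus strand: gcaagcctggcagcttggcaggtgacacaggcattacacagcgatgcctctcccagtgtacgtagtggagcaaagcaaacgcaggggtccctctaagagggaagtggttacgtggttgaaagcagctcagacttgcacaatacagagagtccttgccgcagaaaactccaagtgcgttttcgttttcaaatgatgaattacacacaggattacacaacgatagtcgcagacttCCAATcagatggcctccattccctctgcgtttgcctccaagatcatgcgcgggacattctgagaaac
Scpep1os, chr11:88905678-88905977, plus strand: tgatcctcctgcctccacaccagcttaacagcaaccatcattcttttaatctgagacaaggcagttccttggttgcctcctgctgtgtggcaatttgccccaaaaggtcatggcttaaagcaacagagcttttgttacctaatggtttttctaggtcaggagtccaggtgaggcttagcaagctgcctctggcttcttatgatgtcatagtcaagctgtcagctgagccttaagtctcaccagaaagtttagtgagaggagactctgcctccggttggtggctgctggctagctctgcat
Slfn5os, chr11:82960632-82960931, minus strand: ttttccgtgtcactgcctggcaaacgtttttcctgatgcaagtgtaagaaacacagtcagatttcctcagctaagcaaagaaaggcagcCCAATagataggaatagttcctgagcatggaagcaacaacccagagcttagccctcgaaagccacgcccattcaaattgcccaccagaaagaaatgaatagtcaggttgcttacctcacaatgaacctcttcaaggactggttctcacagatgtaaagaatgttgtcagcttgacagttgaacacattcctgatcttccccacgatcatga
The Il1bos window, which lies inside Il1b, held 3 matches to the RBPJ core and no other motif of the list. Those of Ptgs2os2 and Slfn5os held 1 CCAAT box each, and that of Scpep1os held none of the motifs.

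Dnm3os carries the mature miRNAs miR-199a-5p, miR-199a-3p, miR-214-5p and miR-214-3p (RefSeq, GRCm38.p6, chromosome 1, plus strand), shown here with the seed, bases 2 to 8, in capitals because they are the known products of this transcript. The 4 seeds differ from each other.
mmu-miR-199a-5p, chr1:162217844-162217866: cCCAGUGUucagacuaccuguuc
mmu-miR-199a-3p, chr1:162217883-162217904: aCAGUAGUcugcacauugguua
mmu-miR-214-5p, chr1:162223397-162223418: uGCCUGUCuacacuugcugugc
mmu-miR-214-3p, chr1:162223438-162223459: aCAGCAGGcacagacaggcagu
The counts are of long poly(A) RNA and do not measure mature miRNAs.

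After the 4 columns of a replicate had been summed, the libraries held 42694655 and 56932059 counts for DMSO and 48483661 and 49511733 for GSI. Levels are given as CPM, counts per 1e6 counts after TMM scaling. The limit that a count of 0 allows, 3 counts, was 0.0529 to 0.0697 CPM, and such limits and all intervals cover counting error only. All 8 macrophage markers were at 45.5 CPM or more, and their summed level was 12278 and 12485 CPM with DMSO and 9489 and 10414 CPM with GSI. Every marker of neutrophils, B cells, T cells, erythroid cells, mast cells and stroma was under 1 CPM, with all 4 erythroid and all 4 mast cell markers at 0. The summed level of the 4 dendritic cell markers, 2 of which were under 1 CPM, was 186 and 179 CPM with DMSO and 113 and 115 CPM with GSI. In bulk RNA, fewer cells of a type and less RNA per cell cannot be told apart.

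The quasi-likelihood test of edgeR was run over the 13211 genes that passed its filter on low counts, and the FDR is the Benjamini-Hochberg adjusted p over all of them. Fold changes are GSI against DMSO, and SE is the standard error of the log2 fold change. Of the 63 os rows, 51 were tested and 12 had too few counts. With GSI, 9 of the 51 fell (17.6%, against 21.9% of all tested genes) and 5 rose (9.80%, against 19.0% of all tested genes). Of those that fell, 5, namely Slfn5os, Kdm6bos, Scpep1os, Dhx58os and Tomm6os, also passed a log2 fold change below -1.5, which is 9.80% of the os rows tested and 2.17% of all tested genes. The highest log2 fold change of a tested os row was 1.22 (Taco1os), so none reached the limit of 1.5 upward, which 0.742% of all tested genes passed. The filter asks for counts in only 2 libraries, so a row can pass it through 1 group alone. In all 5 rows a GSI library held under 10 counts, and when 10 counts were required in every library, 0 os rows passed both limits, so nothing is read from the 9.80%. Of the 57 tested parents, 21 fell (36.8%) and 7 rose (12.3%), and 2 parents, Plxna4 and Il1b, were past both limits. Plxna4 held under 10 counts in a GSI library. With 10 counts required in every library, only Il1b stayed past both limits. The median log2 fold change was 0.07 for os rows, -0.15 for parents and 0.01 for all tested genes, and the median of its size was 0.45, 0.26 and 0.24. Os rows held fewer counts than parents (median total 103 against 7524). No genes of matched level were set beside them, so nothing is read from the larger size.

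**Figure D1:**
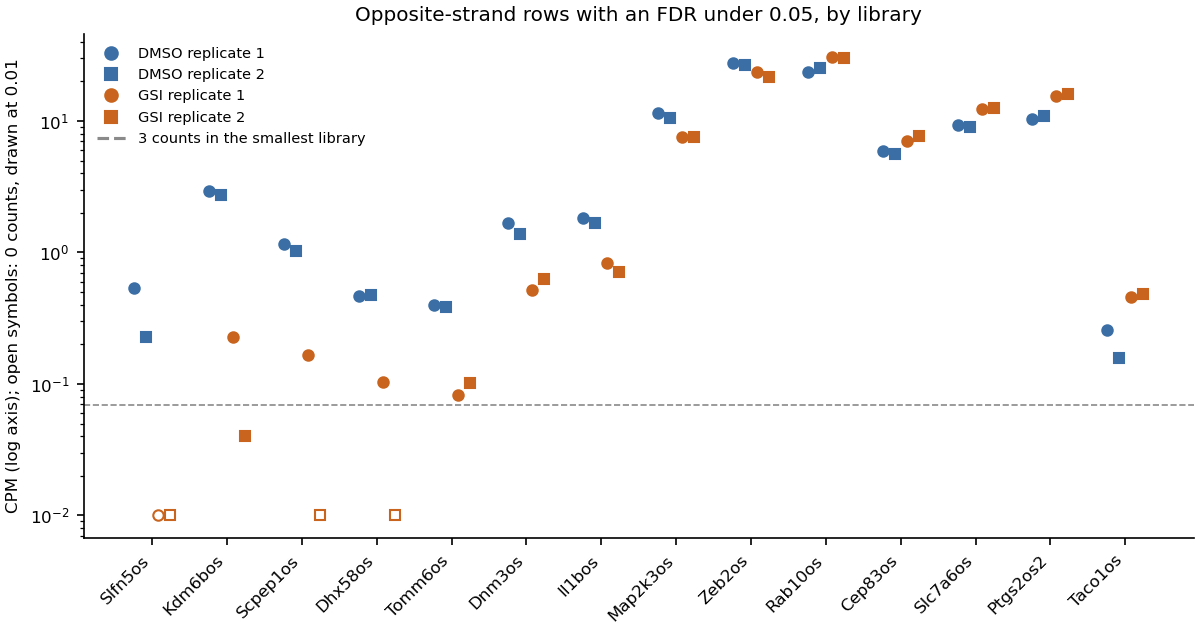
CPM in each library (log axis) of the 14 os rows with an FDR under 0.05, ordered by log2 fold change. Circles are replicate 1 and squares replicate 2, blue is DMSO and orange GSI, and open symbols are counts of 0 drawn at 0.01. The GSI libraries lie below the DMSO libraries in the 9 rows on the left and above them in the 5 on the right, and 5 rows reach 0.228 CPM or less in both GSI libraries.

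The 5 os rows that fell most had few counts left with GSI, from 0 to 11 in a library, and 4 of their 5 parents were abundant. Kdm6bos (ENSMUSG00000085178, chr11:69401513-69402700, plus strand) lies within the 3′ part of Kdm6b, which encodes the H3K27 demethylase JMJD3, a gene induced by LPS. Its counts were 127 and 156 with DMSO and 11 and 2 with GSI. The groups did not overlap, and the log2 fold change was -4.39 (SE 0.34, FDR = 3.17e-09). Kdm6b itself fell less, from 529 and 576 CPM to 302 and 294 CPM, a log2 fold change of -0.89 (SE 0.07, FDR = 7.02e-09). Per 1000 counts of Kdm6b there were therefore 5.58 and 4.77 counts of Kdm6bos with DMSO and 0.753 and 0.138 with GSI, with 95% Wilson intervals of 4.69 to 6.64, 4.08 to 5.58, 0.420 to 1.35 and 0.0378 to 0.502.

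Scpep1os (chr11:88905928-88936061, plus strand) overlaps the end of Scpep1, which encodes a serine carboxypeptidase. It had 50 and 58 counts with DMSO and 8 and 0 with GSI, a log2 fold change of -3.69 (SE 0.51, FDR = 7.45e-06). The parent rose, from 449 and 447 CPM to 530 and 590 CPM (log2 fold change 0.32, SE 0.07, FDR = 0.00169). Dhx58os (chr11:100687417-100697520, plus strand) overlaps the end of Dhx58, which encodes LGP2, a regulator of RIG-I-like sensing of viral RNA. It had 20 and 27 counts with DMSO and 5 and 0 with GSI (log2 fold change -3.14, SE 0.63, FDR = 0.000471). Dhx58 was at 278 and 295 CPM with DMSO and at 324 and 332 CPM with GSI (log2 fold change 0.19, SE 0.07, FDR = 0.0313). In these pairs the os row and its parent moved in opposite directions, and the counts of Scpep1os per 1000 counts of Scpep1 were 2.59 and 2.29 with DMSO and 0.312 and 0 with GSI, where a count of 0 allows up to 0.103.

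Slfn5os (chr11:82942341-82960681, minus strand) runs across the interferon-induced gene Slfn5 and had 23 and 13 counts with DMSO and 0 in both GSI libraries. Against the limit of 3 counts per library it was at least 6.22-fold lower with GSI, at least 3.73-fold without DMSO replicate 1, when the row could not be tested, and at least 8.71-fold without DMSO replicate 2. The fitted log2 fold change of -7.18 (SE 1.24, FDR = 0.000115) depends on the prior count and is no bound. Slfn5 changed from 502 and 481 CPM to 438 and 382 CPM (log2 fold change -0.26, SE 0.08, FDR = 0.0105). Tomm6os (chr17:47687610-47691083, plus strand) starts near Tomm6, which encodes a small subunit of the mitochondrial import channel. Its 17 and 22 counts with DMSO stood against 4 and 5 with GSI (log2 fold change -2.06, SE 0.50, FDR = 0.00254), while Tomm6 was at 2.21 and 1.90 CPM with DMSO and at 2.71 and 2.75 CPM with GSI (FDR = 0.0539, and 0.0389 without a filter). Adap2os, across from the Arf GTPase-activating gene Adap2, was too low to be tested, with 12 and 10 counts with DMSO and 1 and 0 with GSI.

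These calls rest on few counts in some cases. Without 1 library the log2 fold change ranged from -6.05 (without GSI replicate 1) to -3.63 (without GSI replicate 2) for Kdm6bos, from -8.76 (without GSI replicate 1) to -2.69 (without GSI replicate 2) for Scpep1os and from -7.56 (without GSI replicate 1) to -2.16 (without GSI replicate 2) for Dhx58os. Without GSI replicate 1, Scpep1os and Dhx58os had no GSI counts left, so -8.76 and -7.56 depend on the prior count and are no bounds. The FDR by DESeq2 was 0.138 for Scpep1os and 0.0662 for Tomm6os, and the call of Dhx58 was lost without DMSO replicate 1 (FDR = 0.257), DMSO replicate 2 (0.0650) or GSI replicate 2 (0.0830), that of Slfn5 without DMSO replicate 1 (0.0661) or GSI replicate 2 (0.136).

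All 5 rows share exon bases with the parent, 286 for Kdm6bos, 96 for Scpep1os, 141 for Dhx58os, 219 for Tomm6os and 559 for Slfn5os. Beside them stands a difference between the libraries. It was read over 228 other genes that share at least 100 exon bases with expressed genes across from them. The counts of the genes across were scaled by the share of their exon length that overlaps, and a mean of at least 1000 scaled counts was required. Own counts per 1000 scaled counts had a lower quartile of 13.4 and 11.5 for DMSO and of 2.54 and 1.02 for GSI. Their median was 41.4 and 36.0 for DMSO and 15.6 and 8.93 for GSI. These values are not on the scale of the ratios to all parent counts given above. The 84 of these genes that are not protein-coding had a lower quartile of 5.69 and 6.19 for DMSO and of 0.786 and 0.173 for GSI, and a median of 19.6 and 15.8 for DMSO and of 2.64 and 0.933 for GSI. The part of this difference in the fall of the 5 rows, or of other os rows that share exon bases with the parent, such as Zeb2os with 653, was not tested.

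**Figure D2:**
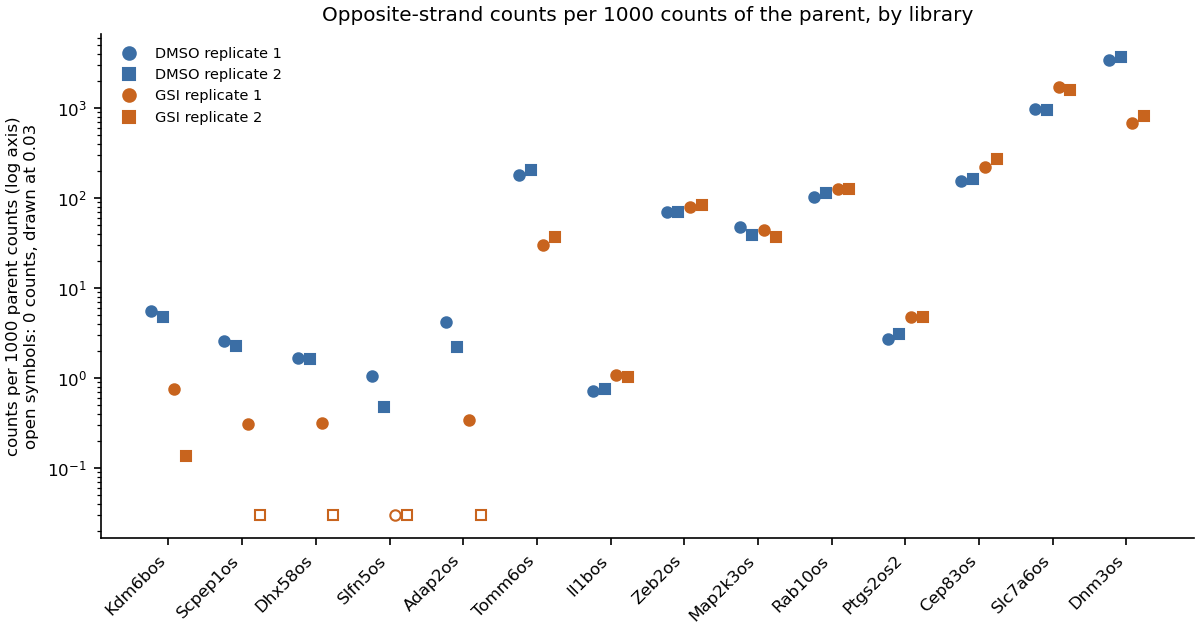
Counts of the os row per 1000 counts of its parent in each library (log axis) for 14 pairs; symbols and colors are DMSO (blue) and GSI (orange), replicate 1 (circles) and 2 (squares), and open symbols are 0 os counts drawn at 0.03. The ratio is lower with GSI in the 6 pairs on the left and in Dnm3os, and higher in Il1bos, Zeb2os, Rab10os, Ptgs2os2, Cep83os and Slc7a6os, while for Map2k3os the groups overlap.

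Among the pairs of inflammatory genes, Il1bos and its parent both fell, and Ptgs2os2 rose while Ptgs2 did not pass the limit. Il1b, which encodes the cytokine IL-1β, was at 2491 and 2229 CPM with DMSO and at 758 and 686 CPM with GSI (log2 fold change -1.71, SE 0.08, FDR = 4.81e-12). Il1bos (chr2:129369897-129375748, plus strand) starts inside Il1b and reads out past its start. It had 78 and 95 counts with DMSO and 40 and 35 with GSI, no overlap between the groups, and a log2 fold change of -1.18 (SE 0.23, FDR = 0.000312). The os row fell somewhat less than the parent, so that its counts per 1000 counts of Il1b were 0.728 and 0.751 with DMSO and 1.09 and 1.03 with GSI. The 2 rows share only 25 exon bases.

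Ptgs2 encodes cyclooxygenase-2, the inducible enzyme of prostaglandin synthesis, and was the most abundant parent. Its counts were 166636 and 200367 with DMSO and 155375 and 166324 with GSI (log2 fold change -0.17, SE 0.08, FDR = 0.0848). Ptgs2os2 (lincRNA-Cox2, chr1:150159043-150164948, minus strand) lies 50815 bp beyond Ptgs2 and shares no base with it. It had 449 and 617 counts with DMSO and 748 and 797 with GSI, that is 10.4 and 10.9 against 15.5 and 16.1 CPM, a log2 fold change of 0.57 (SE 0.09, FDR = 5.35e-05). Ptgs2os (chr1:150074873-150099963, minus strand), which starts 68 bp from Ptgs2 in the window shown above, was far lower, with 16 and 18 counts against 34 and 21 (log2 fold change 0.72, SE 0.37, FDR = 0.124). Ptgs2os2 thus stood at 2.69 and 3.08 counts per 1000 counts of Ptgs2 with DMSO and at 4.81 and 4.79 with GSI, and Ptgs2os at 0.0960, 0.0898, 0.219 and 0.126. The FDR of Ptgs2 was 0.0480 without GSI replicate 2.

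Map2k3os and Map2k3 share a promoter region and fell together. Map2k3 encodes MKK3, a kinase that activates p38, and went from 237 and 271 CPM with DMSO to 170 and 203 CPM with GSI (log2 fold change -0.45, SE 0.09, FDR = 0.000277). Map2k3os (chr11:60920917-60931867, minus strand) starts 166 bp away and went from 11.4 and 10.6 CPM to 7.49 and 7.55 CPM (log2 fold change -0.55, SE 0.10, FDR = 0.000245). Its counts per 1000 counts of the parent, 48.3 and 39.0 with DMSO and 44.0 and 37.2 with GSI, overlapped between the groups. The rows share no exon base.

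Among the other abundant non-coding os rows, Brip1os did not pass the FDR limit, Zeb2os fell and Rab10os rose. Brip1os (chr11:86201370-86304443, plus strand), across from the promoter of the DNA helicase gene Brip1, was the most abundant os row, with 2836 and 3850 counts with DMSO and 2700 and 3045 with GSI. Its log2 fold change was -0.19 (SE 0.07) with an FDR of 0.0501, just above the limit, and it moved to either side of it. The FDR was 0.0439 with RLE factors, 0.0446 without factors, 0.0424 when 10 counts were required in every library and 0.0158 without GSI replicate 2, and it was 0.0869 with DESeq2, 0.0815 without a filter, and 0.0948, 0.196 and 0.320 without DMSO replicate 1, DMSO replicate 2 and GSI replicate 1. Brip1 fell, from 10.4 and 9.20 CPM to 6.70 and 6.24 CPM (log2 fold change -0.59, SE 0.11, FDR = 0.000221). Brip1os held 6345 and 7375 counts per 1000 counts of Brip1 with DMSO and 8333 and 9886 with GSI. Brip1os shares no exon base with Brip1 but has 1312 across from Ints2 and Med13.

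Zeb2os (also Zeb2nat, chr2:45110707-45114087, plus strand) overlaps exons at the start of Zeb2, which encodes a zinc-finger repressor that keeps tissue macrophage identity. It fell from 27.7 and 26.8 CPM to 23.6 and 21.6 CPM (log2 fold change -0.27, SE 0.08, FDR = 0.0123), and Zeb2 fell from 399 and 382 CPM to 293 and 256 CPM (log2 fold change -0.51, SE 0.08, FDR = 2.06e-05). Rab10os (chr12:3235504-3250377, plus strand) meets the end of Rab10, a small GTPase gene of vesicle transport, and rose from 23.4 and 25.4 CPM to 30.8 and 29.9 CPM (log2 fold change 0.31, SE 0.08, FDR = 0.00388), while Rab10 was at 226 and 224 CPM with DMSO and at 247 and 237 CPM with GSI (FDR = 0.243). The call of Zeb2os was lost without DMSO replicate 1 (FDR = 0.0635) or GSI replicate 2 (0.110), and that of Rab10os without DMSO replicate 1 (0.0535).

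In 11 pairs both rows passed the FDR limit. Both fell in 5 pairs (Zeb2, Map2k3, Kdm6b, Il1b and Slfn5), both rose in 1 (Taco1), and they moved in opposite directions in 5. In 5 of the 11 pairs, those of Kdm6bos, Slfn5os, Taco1os, Scpep1os and Dhx58os, the os row held under 10 counts in at least 1 library and passed the filter through the group where it was higher, so the counts of pairs are a description. The 5 pairs that moved in opposite directions were those of Scpep1os, Dhx58os, Slc7a6os, Cep83os and Dnm3os. Over the 48 pairs in which both rows were tested, 22 had the same sign and 26 opposite signs, with a Pearson correlation of 0.05 and a Spearman correlation of 0.04 between the log2 fold changes. The points share their 4 libraries, and 2 parents stand in 2 pairs each. In 15 pairs only the parent passed the limit, and in 3 only the os row (Rab10os, Ptgs2os2 and Tomm6os).

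**Figure D3:**
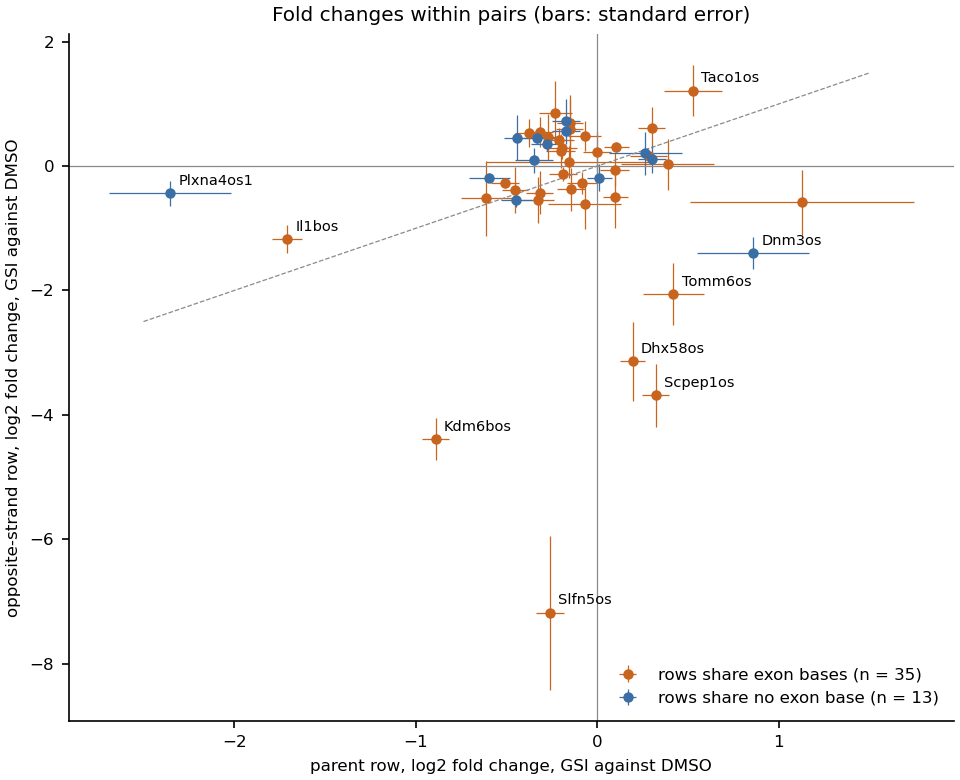
Log2 fold change of the os row (vertical axis) against that of its parent (horizontal axis), GSI against DMSO, for the 48 pairs with both rows tested; bars are standard errors, orange pairs share exon bases, blue pairs do not, and the dashed line marks equal change. Most pairs lie near 0 on both axes, and Kdm6bos, Scpep1os, Dhx58os, Tomm6os and Slfn5os lie far below the line.

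Slc7a6os (chr8:106200717-106210935, minus strand) is a protein-coding neighbor 2010 bp beyond the end of Slc7a6, which encodes an amino acid transporter. It rose from 400 and 506 counts to 597 and 618 (log2 fold change 0.45, SE 0.10, FDR = 0.000932), while Slc7a6 went from 414 and 536 counts to 353 and 388 (log2 fold change -0.33, SE 0.10, FDR = 0.0160). The rows were close to equal with DMSO, 966 and 944 os counts per 1000 parent counts, and not with GSI, 1691 and 1593. Cep83os (chr10:94671025-94688576, minus strand), whose window is shown above, starts 78 bp from Cep83, a gene of the centriole's distal appendages. It went from 5.93 and 5.59 CPM to 6.99 and 7.67 CPM (log2 fold change 0.35, SE 0.12, FDR = 0.0194) and Cep83 from 38.8 and 34.4 CPM to 31.9 and 28.3 CPM (log2 fold change -0.28, SE 0.08, FDR = 0.0120). Neither of these pairs shares an exon base, but Cep83os has 344 exon bases across from another gene, Gm49167.

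The Cep83os call was lost without DMSO replicate 2 (FDR = 0.126) or GSI replicate 2 (0.108) and with DESeq2 (0.134), and that of Cep83 without DMSO replicate 1 (0.143) or GSI replicate 2 (0.111). That of Slc7a6 was lost without DMSO replicate 1 (0.0646) or GSI replicate 1 (0.0823) and with DESeq2 (0.0936).

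Dnm3os (chr1:162217623-162225550, plus strand), the host of the miRNAs shown above, lies within the span of Dnm3, which encodes a dynamin. It had 72 and 78 counts with DMSO and 25 and 31 with GSI, without overlap, a log2 fold change of -1.40 (SE 0.25, FDR = 0.000173). Without 1 library the value stayed between -1.55 and -1.26. Dnm3 was scarcely expressed, with 21 counts in each DMSO library and 37 and 38 with GSI (log2 fold change 0.86, SE 0.31, FDR = 0.0324), and its call was lost without DMSO replicate 2 (FDR = 0.255), GSI replicate 1 (0.0906) or GSI replicate 2 (0.0996) and with DESeq2 (0.270). Per 1000 parent counts there were 3429 and 3714 os counts for DMSO and 676 and 816 for GSI. The pair shares no exon base.

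Taco1os, the only os row that rose together with its parent, is named after its values were seen. It had 11 and 9 counts with DMSO and 22 and 24 with GSI (log2 fold change 1.22, SE 0.41, FDR = 0.0227), and Taco1, a gene of mitochondrial translation, had 147 and 176 against 264 and 193 counts (log2 fold change 0.53, SE 0.16, FDR = 0.0115). The Taco1os call was lost without DMSO replicate 2 (FDR = 0.242), GSI replicate 1 (0.0634) or GSI replicate 2 (0.101) and with DESeq2 (0.236). That of Taco1 was lost without DMSO replicate 2 (0.0608) or GSI replicate 1 (0.240) and with DESeq2 (0.0853).

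Os rows were mostly low and mostly below their parents. Their totals ran from 20 to 12431 counts with a median of 103, 31 had under 100 counts and 9 had 1000 or more. The totals of parents ran from 0 to 688702 with a median of 7524. Per kb of exon, the os level was 7.30% of the parent level at the median over 62 pairs, with quartiles of 1.62% and 56.5%, under 10% in 35 pairs and under 1% in 15. It was above the parent level in 12 pairs. Ptgs2os2 was at 7.58 CPM per kb beside 763 for Ptgs2, and Il1bos at 0.421 beside 808 for Il1b.

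**Figure D4:**
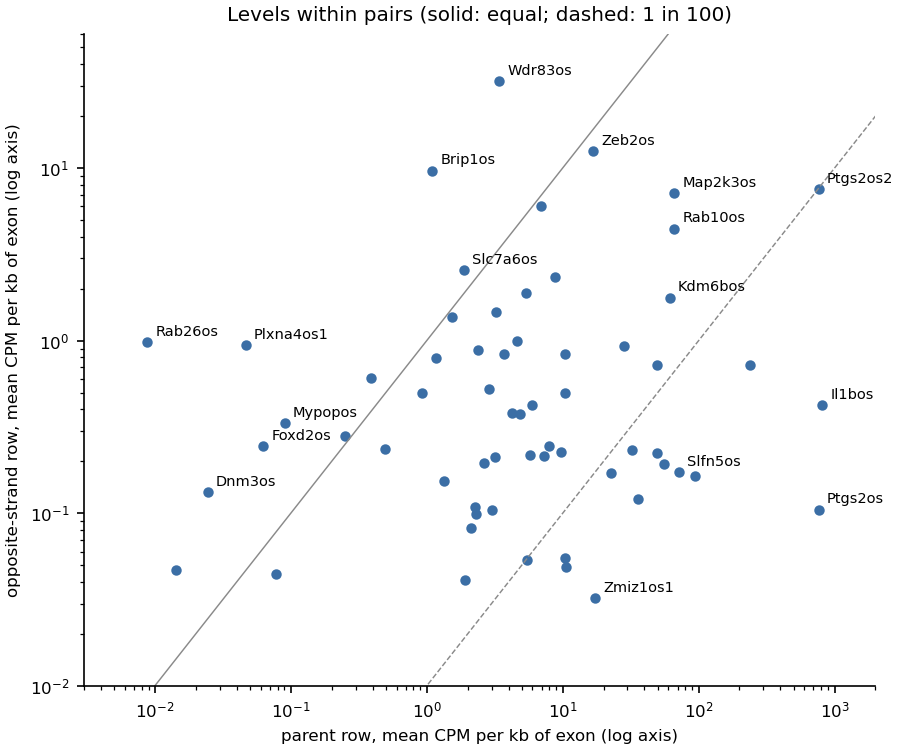
Mean level over the 4 libraries in CPM per kb of exon of the os row (vertical, log axis) against that of its parent (horizontal, log axis) for 62 pairs; Epb41l4aos, whose parent is at 0, is left out. The solid line marks equal levels, with 12 pairs above it, and the dashed line an os level of 1% of the parent, with 15 pairs below it.

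Besides Brip1os and Slc7a6os, the os rows above their parents included Wdr83os. Wdr83os, which encodes Asterix, a chaperone subunit for membrane proteins, was at 31.8 CPM per kb and its parent Wdr83, a scaffold protein gene, at 3.41, or 9.33-fold higher for Wdr83os, and the rows share 539 exon bases. Counts of Wdr83os were 1302 and 1799 with DMSO and 1653 and 1734 with GSI (log2 fold change 0.16, SE 0.08, FDR = 0.0993), and those of Wdr83 were 353 and 518 against 503 and 530 (log2 fold change 0.28, SE 0.10, FDR = 0.0337), a call that was lost without DMSO replicate 1 (FDR = 0.241) or GSI replicate 2 (0.0960) and with DESeq2 (0.161). Epb41l4aos (chromosome 18) had 142 and 157 counts with DMSO and 151 and 165 with GSI (log2 fold change 0.10, SE 0.15, FDR = 0.636), while Epb41l4a, a gene of the membrane skeleton, had 0 counts in all 4 libraries.

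Plxna4os1 lies within the span of Plxna4, which encodes a plexin receptor for semaphorins. Plxna4 fell from 44 and 67 counts to 8 and 13 (log2 fold change -2.35, SE 0.34, FDR = 1.11e-05), and Plxna4os1 had 96 and 118 counts with DMSO and 90 and 65 with GSI (log2 fold change -0.44, SE 0.20, FDR = 0.0838). Its FDR was 0.0133 without GSI replicate 1. The ratio of Plxna4os1 to 1000 counts of Plxna4 was 2182 and 1761 for DMSO and 11250 and 5000 for GSI. The GSI ratios rest on 8 and 13 counts of Plxna4, which was not tested when 10 counts were required in every library. Cebpzos, another protein-coding os row, differed little between the groups, with 7.34 and 6.84 CPM against 6.81 and 6.12 CPM (FDR = 0.384), while Cebpz, a ribosome assembly gene, had an FDR of 0.0553, or 0.0479 with RLE factors and 0.0477 when 10 counts were required in every library.

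Over all pairs, the ratio of os to parent counts put the GSI replicates below the DMSO replicates in 13 pairs and above them in 26, overlapped in 22, and could not be formed in 2 pairs with a parent at 0 in a library. Among the 228 other genes across from expressed genes, the ratio to the scaled counts of the genes across was below in 57.5% and above in 19.7%. No share over all genes was formed, so the counts are a description. The median log2 ratio difference, with a pseudocount of 0.5, was 0.05 over all 63 pairs and over the 61 with a ratio in every library, beside an SD between replicates of 0.07. An exact permutation test of 2 against 2 libraries cannot give a two-sided p below 0.333, so the ratios were not tested.

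The os rows were also counted by position as a description, beside the 21.9% lower and 19.0% higher of all tested genes. Of the 31 tested rows that start within 1000 bp of the start of the parent, 3 fell and 2 rose. Of the 20 that start farther away, 6 fell and 3 rose. Among the 35 tested rows that share exon bases with the parent, 7 fell and 2 rose, with a median log2 fold change of -0.06, and among the 16 that share none, 2 fell (Map2k3os and Dnm3os) and 3 rose (Ptgs2os2, Slc7a6os and Cep83os), with a median of 0.10. The rows past both limits, which passed the filter through DMSO, make up 4 of the 6 and 5 of the 7, so nothing is read from these differences. Other antisense genes of the annotation stood beside them in the same way. Of 205 tested with exon bases across from another gene, 67 fell and 17 rose, and of these 57 and 2 were past both limits. The log2 fold changes of the 205 ran from -6.85 to 1.97. The same limit holds, that a low gene can pass the filter through 1 group alone. Of 44 tested without such bases, 3 fell and 5 rose, and all 44 log2 fold changes lay between -1.25 and 1.39.

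**Figure D5:**
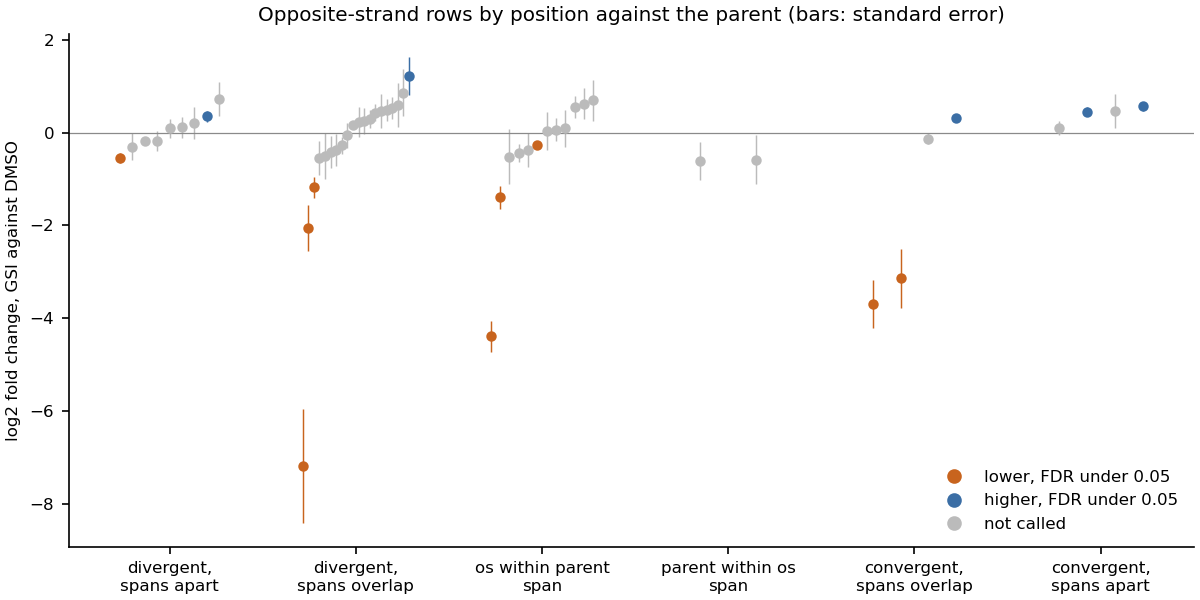
Log2 fold change, GSI against DMSO, of the 51 tested os rows by position against the parent; bars are standard errors, orange rows fell, blue rows rose and grey rows did not pass an FDR of 0.05. Rows whose span lies apart from that of the parent, divergent or convergent, stay between -0.55 and 0.72, and the 5 rows below -1.5 are those that passed the filter through DMSO.

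Of 14 genes of the Integrator complex, which ends the transcription of short divergent RNA and was read from the same fit, 3 fell (Ints6, Asun and Ints8) and 1 rose (Ints5), with a median of -0.13 and a range from -0.28 to 0.40, beside 21.9% lower and 19.0% higher of all tested genes.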

How the data were processed

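The authors made strand-specific poly(A) libraries (TruSeq), aligned the reads to the mouse genome with STAR (2.5.0a, per the submitters' processing notes, which name the builds mm9 and mm10) and used HTSeq to count reads. The deposited table holds raw counts per Ensembl gene for 16 columns, 4 per replicate, which the labels do not define. They were taken as sequencing runs and summed, giving 4 libraries of 42694655 to 56932059 counts. The HTSeq mode and strand setting are not given in the sources used here.

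From the deposited counts, all genes were tested with edgeR 4.0.16 (R 4.3.3; glmQLFit and glmQLFTest, filterByExpr, TMM, group as the only factor), with Benjamini-Hochberg adjustment over 13211 genes, limits of 0.05 for the FDR and 1.5 for the absolute log2 fold change, and an SE of the log2 fold change divided by the square root of F. Symbols came from the table. Positions came from GENCODE M21 (46488 of 47069 IDs found) and promoter windows and miRNAs from RefSeq. Pair ratios used a pseudocount of 0.5 on the log2 scale. Alternatives were DESeq2 1.42.0, other factors, filters and thresholds, the runs as separate samples, a replicate block, genes without exons across and each library left out. In counts simulated for the 13151 genes tested, 99.5% of 193 genes changed 4-fold were called. The simulation gave all genes the same dispersion and drew the changed genes from all tested genes. It does not measure how often a change in a low os row is called.

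The members and gene lists were chosen with earlier results of these data known. Rows named are the 10 highest os rows, those past both limits, pairs called in opposite directions, pairs with a parent past both limits, the highest os to parent ratios, the Ptgs2 rows and those next to the count limit, and others are marked. A list of nuclear RNA decay genes is not reported here.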

Additional observations from a re-analysis of the deposited data

How the results depend on the processing

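Against 9 os rows lower, 5 higher and 5 past both limits, the counts were 5 lower and 0 past both limits when 10 counts were required in every library. With the 16 runs as separate samples, only 26 os rows were tested, against 51, and 9 were higher and 1 passed both limits. Of the 53 parents tested, 11 were higher and 1 passed both limits, against 7 and 2. This setting treats the runs of a replicate as independent samples, which makes p-values too small if they come from the same library. Among genes with no exon base on the opposite strand, which leaves fewer rows to test, 2 os rows were lower, 2 higher and 0 past both limits, and 5 parents were lower, 1 higher and 0 past both limits. With DESeq2, 3 os rows and 4 parents were higher. With 10 counts in every library, 1 parent was past both limits, and without a fold limit 9 os rows were. Without 1 library, 8 to 11 os rows were lower, 4 to 6 higher and 4 to 7 past both limits, and 16 to 21 parents were lower, 4 to 6 higher (4 without DMSO replicate 2) and 2 to 3 past both limits.

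The median log2 ratio difference of 0.05 was 0.21 for pairs with at least 100 os counts and 0.30 for pairs sharing no exon base, it turned to -0.048 for pairs sharing exon bases, and without 1 library it was 0.070 to 0.15 (0.15 without DMSO replicate 2 and 0.13 without GSI replicate 2). Of the 14 os calls, 9 held in all 4 fits without 1 library, and Slfn5os could be tested in 3 of them. Over 40 named rows and 436 alternatives, 435 kept their direction. The exception was Epb41l4aos, at -0.033 without DMSO replicate 2, in a range of -0.033 to 0.22 without 1 library.

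The replicate numbers are shared by the groups, but 2 pairs are too few to show a pairing, and the correlation of the deviations was 0.17. With a replicate block, 11 os rows were lower, 7 higher and 5 past both limits, and 27 parents were lower, 9 higher and 2 past both limits. Of the named rows, Ptgs2 (FDR = 0.0340), Tomm6 (0.0285), Brip1os (0.0136), Cebpz (0.0215) and Plxna4os1 (0.0322) passed the limit under the block, so that the pairs of Ptgs2os2, Tomm6os, Brip1os and Plxna4os1 would then have both rows called. The cause of these shifts was not tested. Rows of few counts limit these results: 31 of the 63 os rows had under 100 counts in all.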
